A study of Xenopus laevis with 6 samples.

Results

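The lipoprotein and fatty acid carrier genes apoa1.L, apob.S and fabp2.L were followed across the pancreas, the liver and the stomach of Xenopus laevis embryos. This frog is allotetraploid, and .L and .S after a symbol tell the copy on a long from that on a short chromosome. Every probe set whose single symbol in the platform annotation was apoa1.L, apob.S or fabp2.L was taken. These were 4 of 15491 probe sets and 3 of the 7531 genes with a symbol, since apob.S had 2 probe sets and the other genes 1 each. The genes were picked from earlier results of the same 6 arrays, in which all stood high in stomach and both apolipoprotein genes in liver as well. Their organ levels are therefore given as a description, with no test. Where organs are said not to overlap, here or for another gene, that describes 2 arrays an organ and nothing is read from it.

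Total RNA of the 3 organ buds, dissected at stage 42 from swimming tadpoles of mixed sex, was hybridised to Affymetrix Xenopus laevis genome arrays. No treatment or genetic change is named in the labels. Each organ had 2 arrays, from 2 tissue isolations numbered 1 and 2 and called independent in the series' design text, and same-numbered arrays of the 3 organs share an experiment code. The sources used here do not give how many embryos each isolation pooled. The buds held epithelium and the tissue around it, so fewer cells of a type and less RNA per cell cannot be told apart.

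The deposited values were probe set intensities on a linear scale, with a median of 100 on every array, and 11.9% to 13.7% of an array's probe sets were under an intensity of 16. The table carried no detection calls, and a dim value was therefore kept as measured. Precision is limited by having 2 arrays for each organ. A gene was called between organs at a limma adjusted p under 0.05 (Benjamini-Hochberg over all probe sets). Of the 7531 genes, 7.22% were called between pancreas and liver, 9.31% between pancreas and stomach and 11.2% between liver and stomach; of all probe sets it was 6.26%, 7.98% and 9.59%. The organ labels were checked against marker lists. Of 17 pancreas markers 14 were higher in pancreas than in liver, where 3.27% of all genes were. Of 19 liver markers 17 were higher in liver than in stomach (5.84% of all genes), and of 5 stomach markers 4 were higher in stomach than in liver (5.36% of all genes). In the other pair of each list the counts were lower. They were 13 for pancreas over stomach (4.41% of all genes), 16 for liver over pancreas (3.96%) and 3 for stomach over pancreas (4.9%). In pancreas the summed intensity of the stomach markers was 52.9 in isolation 1 and 493 in isolation 2, and that of the liver markers 5399 and 1751.

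Apolipoproteins are the proteins that wrap lipid into lipoprotein particles for transport in blood. In mammals apolipoprotein A-I is the main protein of high-density lipoprotein, and apolipoprotein B is the large scaffold around which chylomicrons and very-low-density lipoproteins are built; liver and intestine make both. The intestinal fatty acid binding protein, encoded by fabp2, belongs to a family of small cytosolic proteins that hold long-chain fatty acids inside absorptive cells of the mammalian gut, before they are built into triglyceride and loaded onto lipoproteins.

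The apolipoprotein A-I gene apoa1.L was at an intensity of 6650.25 and 6200.13 in liver, 4988 and 3793 in stomach and 196 and 283 in pancreas (isolations 1 and 2). Both liver arrays were above both stomach arrays, and all 4 lay far above pancreas. The means ± SD (n = 2) were 6425 ± 318 in liver, 4391 ± 845 in stomach and 239 ± 61.4 in pancreas. By ratios of geometric means, liver was 27.3-fold and stomach 18.5-fold above pancreas, and liver 1.48-fold above stomach. The excess of liver over stomach was thus small beside that of both organs over pancreas. It was 1.33-fold within isolation 1 and 1.64-fold within isolation 2, a log2 difference of 0.56 that was 0.10 after quantile normalization.

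The apolipoprotein B gene apob.S had the same order of organs with a wider gap between the upper 2. Its leading probe set was at 3824 and 3591 in liver, 1597 and 1315 in stomach and 134 and 97.8 in pancreas. The groups did not overlap. The means were 3708 ± 164 in liver, 1456 ± 200 in stomach and 116 ± 25.8 in pancreas (SD, n = 2). Liver was 32.3-fold and stomach 12.6-fold above pancreas, and liver was 2.56-fold above stomach, with 2.39-fold within isolation 1 and 2.73-fold within isolation 2.

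The second probe set of apob.S was far dimmer, at 387 and 343 in liver, 64.9 and 37.4 in stomach and 11.01 and 17.4 in pancreas. The organs stood in the same order without overlap, but the stomach values were closer to pancreas. It gave liver 26.3-fold above pancreas, with 35.1-fold and 19.8-fold within isolations 1 and 2. Its pancreas values were near an intensity of 16, and with 16 added the ratio was 12.7-fold, against 28.5-fold for the leading probe set. Stomach was 3.56-fold above pancreas by this probe set (2.19-fold with 16 added) and 12.6-fold by the other, and liver was 7.39-fold above stomach, against 2.56-fold. On each array the ratio of the leading to the second probe set was 24.6 and 35.2 in stomach, 9.89 and 10.5 in liver and 12.2 and 5.64 in pancreas. The 2 probe sets of apob.S therefore changed unequally between liver and stomach, and whether they detect different transcripts was not tested.

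**Figure D1:**
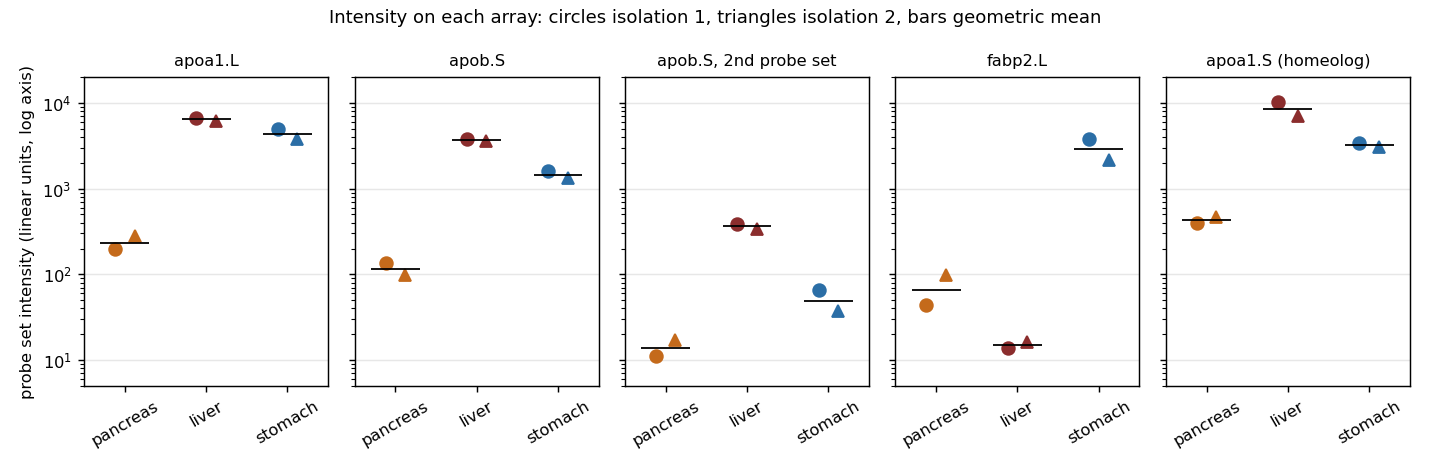
Probe set intensity (log axis) on each of the 6 arrays for apoa1.L, both probe sets of apob.S, fabp2.L and the homeolog apoa1.S, by organ; circles are isolation 1, triangles isolation 2 and bars geometric means. The genes apoa1.L and apoa1.S and the leading probe set of apob.S are high in liver and stomach and low in pancreas, the second probe set of apob.S is at 64.9 and 37.4 in stomach, and fabp2.L is high in stomach, at 3814 and 2151, and lowest in liver.

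Signal of fabp2.L, the fatty acid binding protein gene, was 3814 and 2151 in stomach, 44.1 and 99.2 in pancreas and 13.9 and 16.2 in liver. The order of stomach, pancreas and liver held in both isolations with no overlap, and the liver values were near an intensity of 16. The means were 2982 ± 1176 in stomach, 71.7 ± 39.0 in pancreas and 15.0 ± 1.61 in liver (SD, n = 2). Stomach was 191-fold above liver, with 274-fold within isolation 1 and 133-fold within isolation 2. That size depended on the low liver values, as it was 92.9-fold with 16 added to each intensity. Stomach was 43.3-fold above pancreas, with 86.5-fold in isolation 1 and 21.7-fold in isolation 2 (34.6-fold with 16 added).

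Pancreas was 4.41-fold above liver for fabp2.L, with 3.17-fold within isolation 1 and 6.13-fold within isolation 2, and 2.68-fold with 16 added. Its pancreas value in isolation 2 was 2.25 times that in isolation 1. Stomach markers differed between the same pancreas arrays in the same direction. The cathepsin E gene ctse.L was at 33.7 and 323 in pancreas, the proton pump subunit gene atp4b.S at 5.1 and 96.1 and ctse.S at 3.63 and 23.6, and of the list's 5 genes 1 was higher in isolation 1. The part of these markers in the pancreas value of fabp2.L was not tested.

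The apolipoprotein genes and fabp2.L had different patterns over the organs, a difference already known when they were picked. The values below describe its size, and nothing further is read from it. Centred log2 profiles of apoa1.L and apob.S differed by a root mean square of 0.438 over the 6 arrays, and those of fabp2.L and apoa1.L by 3.59. As a log2 difference of liver minus stomach, apoa1.L was at 0.56, apob.S at 1.35 and fabp2.L at -7.58. Of pancreas minus liver they were at -4.77, -5.01 and 2.14, so fabp2.L was the 1 gene of the 3 with less signal in liver than in pancreas.

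**Figure D2:**
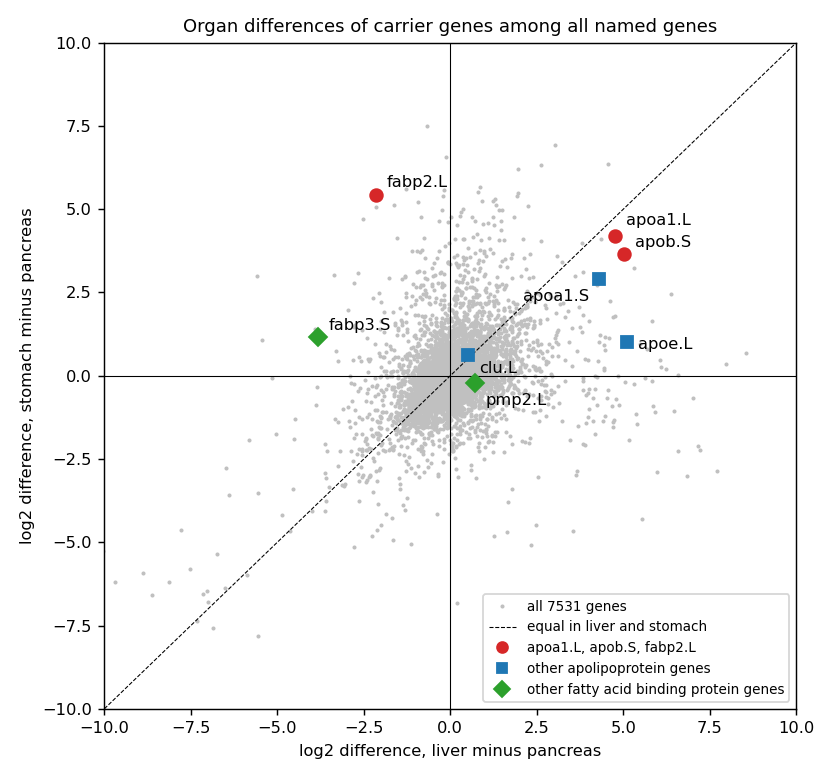
Log2 difference of liver minus pancreas (horizontal) and of stomach minus pancreas (vertical) for all 7531 genes (grey), with the carrier genes and the other measured apolipoprotein and fatty acid binding protein genes marked. The genes apoa1.L, apob.S and apoa1.S lie at the upper right, below the dashed line of equal liver and stomach, whereas fabp2.L and fabp3.S lie at the upper left.

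Genes of other blood plasma proteins that liver makes were set beside apoa1.L and apob.S. Over the 19 liver markers, the stomach intensity was 0.0647% to 18.4% of that in liver, with a median of 1.01%. For apoa1.L it was 67.7% and for apob.S 39.1%, with 13.5% by the second probe set of apob.S. Both genes were picked for standing high in liver and stomach, so a high share was built into the choice. Nothing is read from their contrast with the markers. The summed intensity of the 19 markers was 125900 and 100200 in liver and 1625 and 1094 in stomach. The alpha-1-microglobulin gene ambp.L was at 303 and 312 in stomach against 21382 and 16733 in liver, itih2.S, of an inter-alpha-trypsin inhibitor heavy chain, at 17.4 and 10.2 against 13147 and 11505, and the transferrin gene tf.L at 293 and 99.6 against 11735 and 10687. The highest share was that of ahsg.L, a dim marker at 15.5 and 360 in liver and 4.99 and 37.8 in stomach. In stomach 9 of the 19 were under an intensity of 50 on both arrays.

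**Figure D3:**
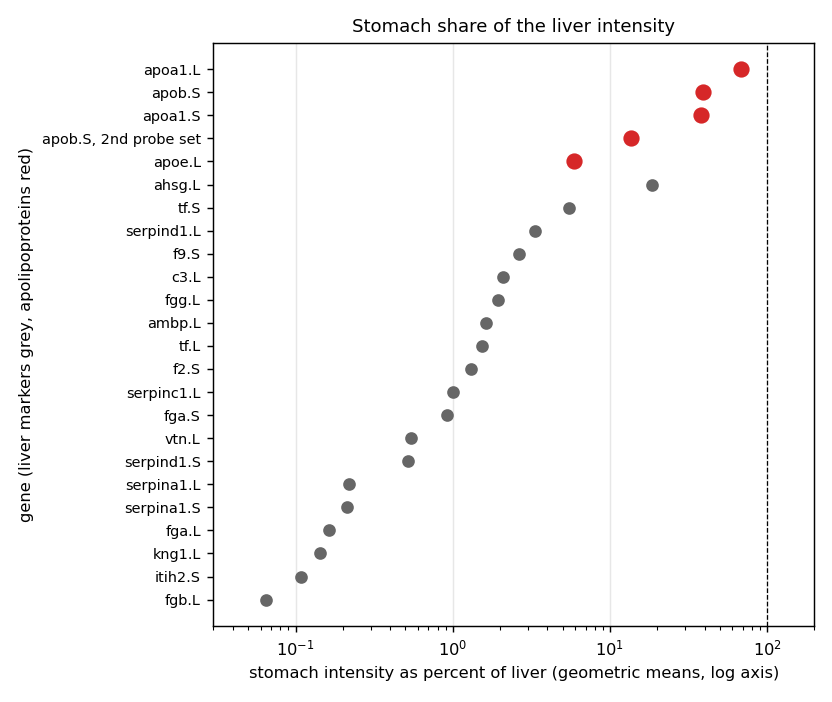
Stomach intensity as a percentage of liver intensity (geometric means, log axis) for the 19 liver markers in grey and for apoa1.L, both probe sets of apob.S, apoa1.S and apoe.L in red; the dashed line marks equal intensity. The highest marker, ahsg.L, is at 18.4%; apoa1.L, apoa1.S and the leading probe set of apob.S are at 38.0% to 67.7%, and the second probe set of apob.S (13.5%) and apoe.L (5.90%) lie within the range of the markers. The genes apoa1.L and apob.S were picked for high signal in both organs.

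In pancreas 18 of the 19 liver markers were higher in isolation 1, among them tf.L at 380 against 59.1 and itih2.S at 578 against 119. The gene apoa1.L was higher in isolation 2, at 283 against 196, while apob.S was 1.37 times higher in isolation 1. The part of liver markers in these pancreas values was not tested.

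Because fabp2 is known from the intestine, intestinal markers were set beside it. Of the 11 measured markers 6 were under an intensity of 50 on both stomach arrays, including the intestinal homeobox gene cdx1.S at 33.0 and 28.3 and all 4 trefoil factor genes. As many were under 50 on both arrays in pancreas (6) and in liver (6). The 11 genes covered 6 of the list's 20 entries. The list's summed intensity was 2962 and 1784 in stomach, 1744 and 1416 in pancreas and 1151 and 1116 in liver. Most of the stomach sum came from 2 galectin genes and most of the pancreas sum from anpep.L, all given below. The sums therefore do not rank the organs for the list as a whole. Against pancreas 2 markers, the galectin genes lgals4.1.L and lgals4.1.s (so spelled in the annotation), were higher in stomach, and 1, the aminopeptidase gene anpep.L, was higher in pancreas; 4.9% and 4.41% of all genes were. The gene lgals4.1.s was at 621 and 478 in stomach, 14.7 and 29.9 in pancreas and 1.88 and 7.08 in liver, high in stomach alone. The gene lgals4.1.L was at 1408 and 724 in stomach and 143 and 45.2 in pancreas (12.6-fold, limma adjusted p = 0.0380). The gene anpep.L was at 982 and 803 in pancreas and 59.9 and 128 in stomach. Against liver lgals4.1.s was called (limma adjusted p = 0.00820), and so was the surface antigen gene gpa33.L, at 380 and 198 in stomach and 63.3 and 46.1 in liver (5.08-fold, limma adjusted p = 0.0236). The microvillus gene vil1.S was at 396 and 150 in stomach and 569 and 393 in liver, which was not called. The part of intestinal cells in the stomach value of fabp2.L was not tested.

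The isolations gave the 1 comparison of these genes that their choice had not used. In a limma fit of organ and isolation, isolation 2 minus isolation 1 was 0.01 for apoa1.L on the log2 scale (SE 0.232, limma adjusted p = 0.985), -0.28 for apob.S (SE 0.145, limma adjusted p = 0.458) and 0.19 for fabp2.L (SE 0.433, limma adjusted p = 0.860). The second probe set of apob.S was at -0.10 (limma adjusted p = 0.898). None passed, and apob.S was lower in isolation 2 in 3 of 3 organs, while apoa1.L was higher in 1 of 3 and fabp2.L in 2 of 3. No probe set on the arrays passed in this fit (0 of 15491, 0.0%), and 2112 (13.6%) had an unadjusted p under 0.05. With an intensity trend 296 passed and with a filter on dim probe sets 116, and over these and the other alternatives the lowest limma adjusted p of a probe set of apoa1.L, apob.S or fabp2.L was 0.221.

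The short-chromosome copy apoa1.S, which was no part of the choice, was at 400.0 and 464 in pancreas, 10282 and 7022 in liver and 3417 and 3051 in stomach. Liver was highest, stomach next and pancreas lowest, with no overlap, as for apoa1.L. Liver was 19.7-fold above pancreas (limma adjusted p = 0.00503), and stomach was 7.5-fold above pancreas (limma adjusted p = 0.0115). Liver was 2.63-fold above stomach (limma adjusted p = 0.0366), and that call ended with the replicate block (limma adjusted p = 0.0514), with quantile normalization (0.0646) and without any 1 of the 6 arrays (0.0534 to 0.146). The call of stomach over pancreas ended without either pancreas or either stomach array, with limma adjusted p up to 0.0751.

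Within each array the ratio of apoa1.L to apoa1.S was 1.46 and 1.24 in stomach, 0.647 and 0.883 in liver and 0.489 and 0.609 in pancreas. It was higher on both stomach arrays than on all others, so the signals of the 2 copies changed unequally between organs. The 2 copies are near relatives, and whether their probes share transcripts was not tested. Copies fabp2.S and apob.L were not analysed here.

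The genes with the most similar profile to each carrier gene were ranked over the 6 arrays by the root mean square difference of centred log2 intensities. For apoa1.L these were apob.S (0.438), the glutathione transferase gene gstt1.L (0.439), apoa1.S (0.566), the hedgehog ligand gene shh.L (0.648) and the prostaglandin D synthase gene hpgds.L (0.722). For apob.S they were apoa1.S (0.420), apoa1.L (0.438), hpgds.L (0.474), the transthyretin gene ttr.L (0.508), whose product carries thyroid hormone and retinol-binding protein in plasma, and shh.L (0.582). Both rankings thus held apoa1.S, hpgds.L and shh.L, and neither held apoe.L. As apoa1.L and apob.S were both picked for high signal in liver and stomach on these arrays, their likeness was built into the choice. Nothing is read from their place in each other's ranking. The gene clu.L was too dim to be ranked, as only genes with a mean intensity of 100 or more were. The gene hpgds.L was at 5946 and 5306 in liver, 2846 and 1354 in stomach and 365 and 246 in pancreas. The gene shh.L was much dimmer, at 133 and 241 in liver, 96.1 and 120 in stomach and 14.1 and 11.2 in pancreas. It reached the mean of 100 only through liver and stomach. The limit thus favours dim genes that are high in the same organs, and nothing is read from the place of shh.L.

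For fabp2.L the closest profiles were ag1.L (0.429), the galectin gene lgals4.1.s (0.591), mal.L (0.666), ctse.L (0.666) and sox2.L (0.7495), the transcription factor gene of the anterior gut. Of these lgals4.1.s was in the intestinal marker list, and ctse.L and sox2.L were in the stomach marker list. The gene ag1.L was at 7417 and 5541 in stomach, 95.7 and 351 in pancreas and 49.0 and 73.0 in liver. All 5 were higher in isolation 2 in pancreas, as fabp2.L was. The ranking used these same pancreas arrays, so nothing is read from that shared direction. Pearson's r over the same 6 arrays was 0.948 to 0.994 in all 15 pairs, and ranking by it instead shared 0, 1 and 0 of the 5 genes for apoa1.L, apob.S and fabp2.L. With 16 added before ranking, 4 of 5 were shared for each.

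**Figure D4:**
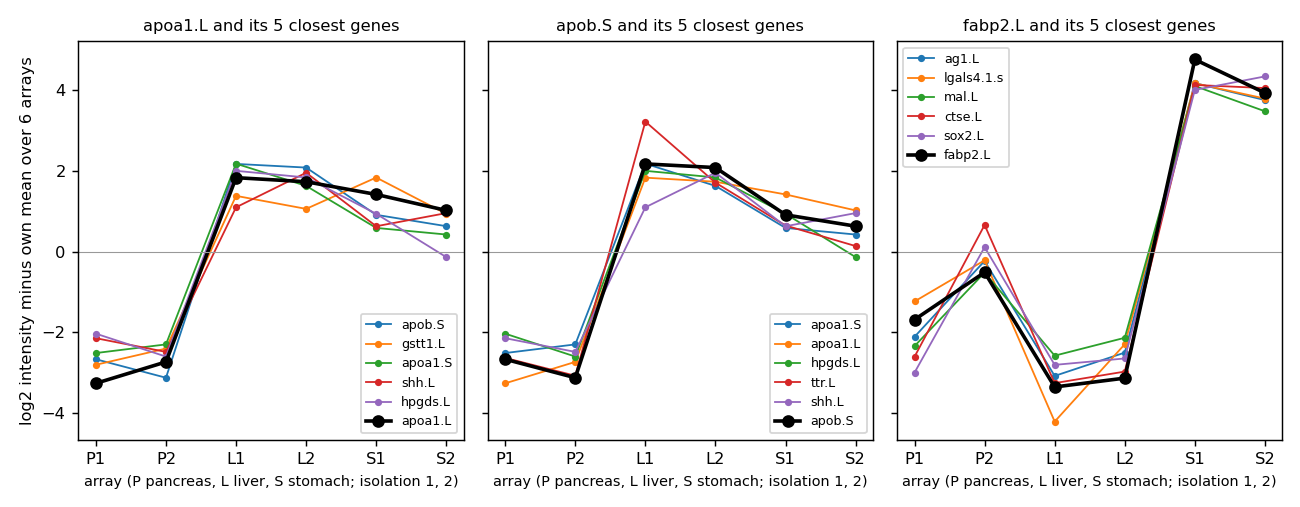
Log2 intensity minus its own mean over the 6 arrays (P pancreas, L liver, S stomach; isolations 1 and 2) for apoa1.L, apob.S and fabp2.L in black and the 5 genes with the most similar profile to each in colour. The apolipoprotein profiles are low on both pancreas arrays, and the fabp2.L profiles are high on both stomach arrays, with a higher pancreas value in isolation 2 than in isolation 1. The genes in colour were picked by likeness over these same arrays.

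In all, 37 of the 7531 genes (0.491%) were called higher in both liver and stomach than in pancreas with a ratio over 3. The genes apoa1.L and apob.S are in that count because they were chosen for the pattern, and nothing is read from it. Of the 77 other genes in the carrier pathway lists, apoa1.S and ttr.L met this. A ratio over 3 with a call for stomach over both other organs, the pattern of fabp2.L, was met by 174 genes (2.31%), and by 1 of the 77, the paraoxonase gene pon2.L.

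In the RefSeq annotation of the Xenopus laevis v10.1 assembly, apoa1.L lies on chromosome 7L, apob.S on 5S and fabp2.L on 1L. The closest annotated genes to apoa1.L include those of 2 more apolipoproteins, apoa4.L and apoa5.L, which had no probe set with a single symbol. Among the 10 nearest genes to apoa1.L, 4 had a probe set. Of these the smooth muscle gene tagln.L was at 1956 and 1258 in stomach, 141 and 94.8 in liver and 199 and 141 in pancreas, high in stomach and not in liver. The others, pcsk7.L, pafah1b2.L and zpr1.L, were called between no organs. Near apob.S only gdf7.S had a probe set, and it was not called. Near fabp2.L only the dim myoz2.L had one, with stomach 2.19-fold above pancreas (limma adjusted p = 0.0498).

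In the same families few further genes were measured. Of 3 apolipoprotein genes 2 were called higher in liver than in stomach (5.84% of all genes), the call of apoa1.S with the limits given above. Of 2 fatty acid binding protein genes 1 was called higher in stomach (5.36% of all genes), and the other lay on the side of liver. Of 3 further apolipoprotein genes, apoe.L and apoa1.S were higher in liver than in both other organs, and clu.L was not called. The signal of clu.L was 4.03 to 9.5, under an intensity of 16 on all 6 arrays, so its lack of a call says little. The apolipoprotein E gene apoe.L, whose product binds lipoprotein receptors, was at 5512 and 6126 in liver, 306 and 384 in stomach and 192 and 149 in pancreas. Liver exceeded pancreas by 34.4-fold and stomach by 16.9-fold (limma adjusted p = 0.00351 and 0.00456), and both calls held without each array in turn. The same ratio of liver to stomach was 1.48 for apoa1.L and 2.56 for apob.S. Of 2 further fatty acid binding protein genes, fabp3.S was called and pmp2.L was not. Signal of pmp2.L was 126 and 234 in liver, 115 and 70.9 in stomach and 117 and 95.1 in pancreas. The gene fabp3.S was at 1184 and 784 in stomach, 452 and 406 in pancreas and 25.2 and 36.3 in liver. Over liver it was 31.8-fold higher in stomach and 14.2-fold in pancreas (limma adjusted p = 0.00489 and 0.00799), and stomach over pancreas was 2.25-fold (limma adjusted p = 0.0889, but 0.0494 with quantile normalization and 0.0291 with 16 added). The call of pancreas over liver ended without either pancreas array or liver replicate 1, with limma adjusted p up to 0.0529. With 16 added, stomach exceeded liver by 21.1-fold for fabp3.S.

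Over the whole set of carrier pathway lists, calls between liver and stomach lay mostly on the side of liver. Of 77 genes besides apoa1.L, apob.S and fabp2.L, 23 were higher in liver and 4 in stomach (35.1%, against 11.2% of all genes), and the median log2 difference of liver minus stomach was 0.69, against 0.04 over all genes. Between pancreas and liver 12 were higher in liver, where 3.96% of all genes were, and 6 in pancreas (23.4% together, against 7.22%), and between pancreas and stomach 7 were higher in each (18.2%, against 9.31%). Markers of other cell types lay, in sum, on the same side. The summed intensity of 11 erythrocyte markers was 36360 and 35570 in liver and 7759 and 8380 in stomach, with 6 called higher in liver (5.84% of all genes). That of 9 endothelial markers was 1337 and 1175 in liver and 700 and 651 in stomach, with 5 called higher in liver (5.84% of all genes). The brightest were the globin genes hba2.L, hba3.L and hbd.S, the last at 18988 and 17215 in liver and 4168 and 4707 in stomach, and the endothelial genes tek.S, egfl7.S and pecam1.L, the last at 225 and 141 in liver and 281 and 280.2 in stomach and not called. Their part in the counts was not tested. The counts rest on few arrays. Without 1 array they were 5 to 11 for liver and stomach (5 without stomach replicate 1), 2 to 14 for pancreas and liver (2 without pancreas replicate 2) and 0 to 10 for pancreas and stomach (0 without pancreas replicate 1 or stomach replicate 1). With an intensity trend they were 36 for pancreas and liver and 29 for pancreas and stomach, where 2013 and 2273 of the 15491 probe sets were called. Of the 46 calls of the genes named by rule from these lists, 40 ended without at least 1 array, and 6 held: both of apoe.L, liver over pancreas for apoa1.S, and the calls between liver and stomach of fabp3.S, lcat.L and prox1.L.

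**Figure D5:**
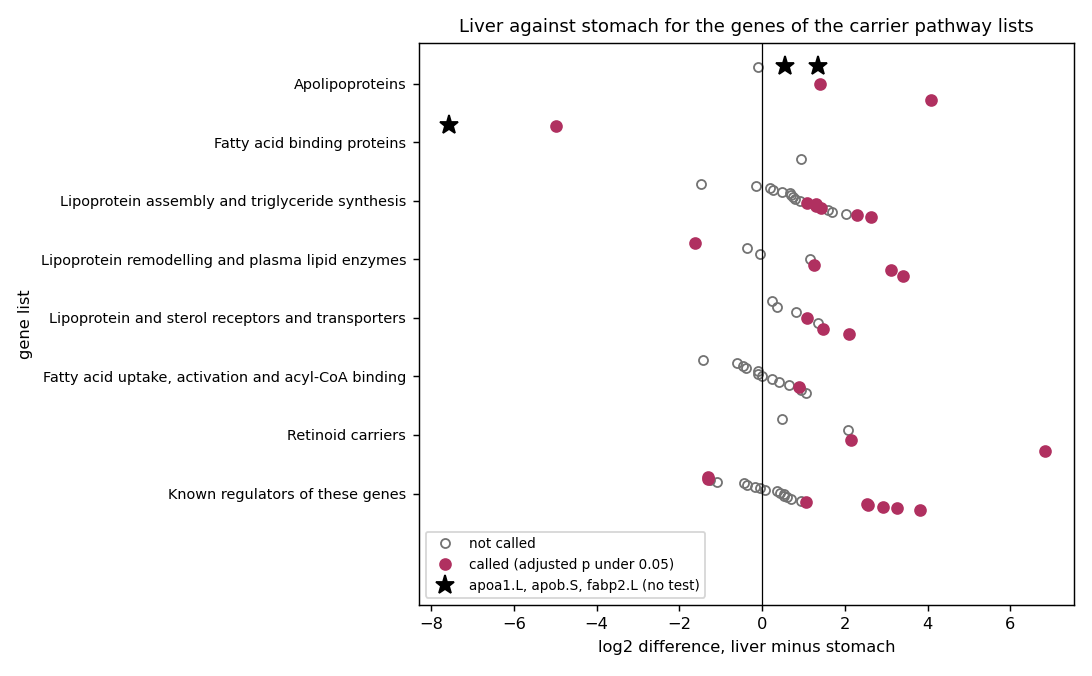
Log2 difference of liver minus stomach for each gene of the 8 carrier pathway lists, filled where called and open where not; stars show apoa1.L, apob.S and fabp2.L, plotted as a description without a call. The called genes of the assembly and receptor lists lie right of 0, as apob.S does. The gene fabp3.S lies left of 0 with fabp2.L, and pmp2.L, not called, lies right of 0.

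Genes of lipoprotein assembly and triglyceride synthesis, the steps that load apolipoprotein B, were higher in liver than in stomach where they were called: 6 of 19 (5.84% of all genes), with a median log2 difference of 0.91. The count was 10 with an intensity trend and 2 under the study's rule (analysis of variance p under 0.05 and a ratio over 3). Of the 15491 probe sets, 2151 and 1064 were called between liver and stomach under these settings, against 1485 in the main fit. Of the list's 28 entries 16 were measured, and the transfer protein gene mttp was not. The mitochondrial glycerol-3-phosphate acyltransferase gene gpam.S was at 858 and 792 in liver, 119 and 152 in stomach and 160 and 231 in pancreas. Liver exceeded stomach by 6.14-fold and pancreas by 4.3-fold (limma adjusted p = 0.00945 and 0.0195). The gene mia2.L, whose product helps export large cargo from the endoplasmic reticulum, was 4.89-fold higher in liver and 3.35-fold higher in pancreas than in stomach (limma adjusted p = 0.0110 and 0.0268). The disulfide isomerase gene p4hb.L, which encodes the smaller subunit of the microsomal triglyceride transfer protein, had 2.68-fold more signal in liver than in stomach (limma adjusted p = 0.0393, and 0.156 with quantile normalization). Its signal was also high in pancreas, at 9383 and 10334 against 11580 and 13408 in liver, which was not called (limma adjusted p = 0.511). For sortilin sort1.S, a sorting receptor, stomach was 4.34-fold above pancreas (limma adjusted p = 0.0270). Stomach was also 2.8-fold above liver for sort1.S, against the side of the called genes, and just missed the threshold (limma adjusted p = 0.0502). Without 1 array the limma adjusted p of these 6 calls reached 0.0574 to 0.140.

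In a list of lipoprotein remodelling and processing enzymes, 3 of 7 genes were higher in liver than in stomach (5.84% of all genes), lcat.L, furin.S and bmp1.S, and pon2.L was lower. Under the study's rule 2 were called in place of 4. The product of lcat acts on plasma lipoproteins, while those of furin and bmp1 are proteases that cleave many proteins. The gene bmp1.S was at 394 and 403 in liver and 156 and 181 in stomach (2.37-fold, limma adjusted p = 0.0243). The gene lcat.L, of the enzyme that esterifies cholesterol on high-density lipoprotein, was at 583 and 450 in liver, 36.6 and 64.5 in stomach and 36.4 and 32.6 in pancreas. It was 10.5-fold above stomach and 14.9-fold above pancreas (limma adjusted p = 0.00824 and 0.00921, the latter up to 0.0583 without 1 array). Stomach was 1.41-fold above pancreas for lcat.L, which was not called. The gene pon2.L, of an intracellular paraoxonase, was higher in stomach, by 5.42-fold over pancreas and 3.1-fold over liver (limma adjusted p = 0.0139 and 0.0226, up to 0.0857 and 0.0993 without 1 array). The convertase gene furin.S had 8.66-fold more signal in liver than in stomach (limma adjusted p = 0.0387), and 5.05-fold with 16 added. That call ended with the replicate block (limma adjusted p = 0.0675) and without any 1 array, where it was 5.45-fold to 13.7-fold.

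Among 7 receptor and sterol transport genes 3 were higher in liver than in stomach (5.84% of all genes), with 5 called under the filter on dim probe sets or the intensity trend and 1 under the study's rule. The filter called 1844 of the 9295 probe sets it kept between these organs. The receptor-associated protein gene lrpap1.L was at 544 and 539.6 in pancreas and 575 and 571 in stomach (limma adjusted p = 0.811). The lysosomal cholesterol carrier gene npc2.L was highest in liver, by 4.29-fold over stomach and 5.23-fold over pancreas (limma adjusted p = 0.0217 and 0.0214), and npc2.S 2.13-fold and 2.08-fold (0.0326 and 0.0456). The lysosomal membrane gene scarb2.S had 2.76-fold more signal in liver than in stomach (limma adjusted p = 0.0452). Without 1 array the limma adjusted p of these 5 calls reached 0.0934 to 0.188. Of 13 genes of fatty acid uptake and activation, 1 was called between liver and stomach (7.69%, against 11.2% of all genes), and 0 with quantile normalization. Their median log2 difference of liver minus stomach was 0.0. The transporter gene slc27a2.L was higher in pancreas, at 248 and 283, than in liver at 36.6 and 48.8 and in stomach at 58.1 and 58.5 (6.28-fold and 4.55-fold, limma adjusted p = 0.00913 and 0.0139). The sterol carrier gene scp2.L had the organ order of apoa1.L and apob.S, at 2012 and 2003 in liver, 1092 and 1053 in stomach and 498 and 570 in pancreas. Its limma adjusted p were 0.0109 for liver over pancreas, 0.0424 for stomach over pancreas and 0.0479 for liver over stomach, the last 0.0551 with the replicate block and 0.0839 with quantile normalization. Without 1 array the limma adjusted p of the slc27a2.L and scp2.L calls reached 0.0568 to 0.194.

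Among carriers of retinoids, another class of lipid, ttr.L had the organ order of the apolipoprotein genes. It was at 7448 and 2614 in liver, 1254 and 882 in stomach and 130 and 95.5 in pancreas. Liver was 39.7-fold and stomach 9.46-fold above pancreas (limma adjusted p = 0.0125 and 0.0344), and leaving out liver replicate 1 or 2 gave 23.5-fold or 67-fold for the first. The retinol-binding protein gene rbp4.L had a liver level 114-fold that of stomach (limma adjusted p = 0.0262), and its pancreas values of 1001 and 96.0 stood far apart. Its copy rbp4.S was at 13848 and 12649 in liver, 2518 and 3507 in stomach and 2231 and 1062 in pancreas, with a limma adjusted p of 0.0383 for liver over stomach that was 0.0629 with the replicate block and 0.0627 with quantile normalization. The gene crabp2.L, of a cytosolic retinoic acid carrier in the family of fabp2, was highest in pancreas, by 5.87-fold over liver and 8.26-fold over stomach (limma adjusted p = 0.0197 and 0.0149). Without 1 array the limma adjusted p of the calls named here reached 0.0694 to 0.168, and liver over stomach for rbp4.L was 79.9-fold to 161-fold.

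Of 22 genes of transcription factors and other regulators known to control carrier genes in mammals, 6 were higher in liver than in stomach and 2 in stomach (5.84% and 5.36% of all genes), and 5 of these organ differences in place of 8 were called under the study's rule. The gene hnf4a.S, of a nuclear receptor that drives apolipoprotein genes in mammalian liver and gut, was at 859 and 882 in liver, 173 and 128 in stomach and 235 and 122 in pancreas. Liver exceeded stomach by 5.85-fold and pancreas by 5.14-fold (limma adjusted p = 0.0200 and 0.0313), and stomach and pancreas overlapped. The homeobox gene prox1.L was above stomach by 14.1-fold in liver and 8.48-fold in pancreas (limma adjusted p = 0.00945 and 0.0200), and for cebpb.L, of a leucine zipper factor of liver, liver was 7.51-fold above stomach (limma adjusted p = 0.0207), with 4.85-fold when stomach replicate 2 was left out and 11.6-fold when stomach replicate 1 was. The orphan receptor genes nr5a2.L and nr5a2.S were 27.8-fold and 30.4-fold higher in pancreas than in stomach (limma adjusted p = 0.00610 and 0.0127), 15.7-fold and 17.2-fold with 16 added. For nr5a2.S the other probe set had a log2 difference of -0.05 against 4.93, and leaving out stomach replicate 1 or 2 gave 18.8-fold or 49.1-fold. The other probe set of nr5a2.L gave 2.84 and was not called. Other probe sets also missed the threshold for hnf4a.S between pancreas and liver and for mia2.L and scp2.L between pancreas and stomach. The zinc finger factor gene gata5.L was above liver by 3.09-fold in pancreas (limma adjusted p = 0.0247). Its copy gata5.S was not called between these organs (limma adjusted p = 0.667). It was at 299 and 277 in pancreas, 261 and 256 in liver and, highest, 666 and 607 in stomach. Without 1 array the limma adjusted p of the calls named here reached 0.0704 to 0.125, except liver over stomach for prox1.L, which held.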

How the data were processed

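RNA of pancreas, liver and stomach buds was measured on 6 arrays, and organs and replicate numbers were read from sample titles. The authors deposited 1 table of linear intensities, scaled to a common median. The submitters' processing notes name RMA and the design text names Expressionist software; no source used here gives further steps. The table's 120 control rows (of 15611) were dropped. The platform annotation gave 1 symbol for 9304 probe sets, several for 195 and none for 5992, and RefSeq (Xenopus laevis v10.1) held 9227 of the 9304 gene identifiers. The probe set with the highest mean stood for a gene. No coordinates are given, since the arrays name no build.

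Organ means of log2 intensities were fitted in R 4.3.3 with lmFit, contrasts.fit and eBayes of limma 3.58.1 (3 residual degrees of freedom, prior 2.14), with Benjamini-Hochberg adjustment per contrast over all probe sets and a threshold of 0.05. The fit was tested on simulated data. Isolations were compared with organ as covariate. An exact permutation test of 2 against 2 arrays cannot pass 0.05, so none was run. The organ p-values set an organ difference against the spread between the 2 isolations within organs, pooled over the organs and moderated by eBayes. Same-numbered arrays share an experiment code, and their deviations correlated at 0.152 to 0.197 between organs across probe sets (0.400 to 0.431 for mean intensities over 100), so the numbers pair the arrays. The organ fit behind all calls leaves this pairing out, and the replicate block was its alternative. Others were each array left out, dropping the dimmest probe sets (under percentile 40 by mean), quantile normalization, 16 added, an intensity trend, the mean of a gene's probe sets and the study's rule (analysis of variance p under 0.05, ratio over 3).

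The carrier genes, the 8 pathway and 6 marker lists and the tests were chosen with earlier results of these data known. Genes named from a pathway list are the 3 called genes with the largest log2 difference per organ pair, or the brightest if none; 3 genes per marker list (the brightest), the 5 closest profiles per carrier gene and other copies of the carrier genes are also named. Genes named outside this rule (ahsg.L, bmp1.S, cdx1.S, gpa33.L, clu.L, pmp2.L, tagln.L, gata5.S) were chosen after their values were seen. With tagln.L, the chromosome neighbours given values or calls are all those that had a probe set. Means ± SD were taken on the linear scale, and each fold is a ratio of geometric means. Closest profiles were ranked among genes with a mean intensity of 100 or more. Lists matched symbols or synonyms, and 8 synonym matches to other genes were left out. Entries measured were 4 of 20 for apolipoproteins, 3 of 10 for fatty acid binding proteins and 16 of 28 for assembly. They were 5 of 17 for remodelling, 5 of 22 for receptors and 11 of 24 for fatty acid uptake. Retinoid carriers had 3 of 9 and regulators 16 of 30.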

Additional observations from a re-analysis of the deposited data

How the results depend on the processing

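The log2 differences of apoa1.L, apob.S and fabp2.L kept their direction under every alternative run. Of liver minus stomach, quantile normalization gave 0.10 for apoa1.L and 1.10 for apob.S, the second probe set of apob.S gave 2.89, and 16 added gave -6.54 for fabp2.L; of pancreas minus stomach the second probe set of apob.S gave -1.83. The counts of carrier pathway genes called were 32 with the filter, 34 with 16 added and 36 with the trend for pancreas and liver, and 27, 25 and 29 for pancreas and stomach; the study's rule gave 15 for liver and stomach. Without 1 array they were 2 to 14, 0 to 10 and 5 to 11 for these pairs in the order pancreas and liver, pancreas and stomach, liver and stomach. Over all probe sets, 969 were called between pancreas and liver (105 to 552 without 1 array; 1816 with the filter, 1720 with 16 added, 2013 with the trend), 1236 between pancreas and stomach (0 to 731; 2118, 2129 and 2273) and 1485 between liver and stomach (303 to 966). Leaving out an array also takes 1 of 3 residual degrees of freedom. Between isolations, 116 probe sets were called with the filter and 296 with the trend. With the replicate block the pathway counts were 22, 19 and 28 in place of 18, 14 and 27, and beyond the block values given above it ended no call of a gene named from the pathway lists; quantile normalization ended 4 of these calls, the mean of a gene's probe sets 3 and the study's rule 8. All calls rest on 2 arrays per organ, and no background values were used.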
